A study of Mus musculus with 2 samples.

Results

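A set of genes that mark GABAergic interneurons was examined in RNA-seq of the mouse embryonic cortex. The genes were chosen by name, as 8 of the 21896 genes listed in both libraries, and fall into 3 roles: the transmitter genes Gad1, Gad2 and Slc32a1, the neuropeptide genes Sst and Npy, and the transcription factor genes Lhx6, Lhx8 and Nkx2-1. RNA was taken at E13.5 from cortical VZ–SVZ, the germinal ventricular and subventricular layers, of C57/BL6 embryos. The control was 1 Rcor2fl/fl library, homozygous for a floxed allele of Rcor2, and it was compared with 1 Rcor2cko library, in which the same alleles are deleted by Cre driven from Nestin. Rcor2 encodes a partner of LSD1, an enzyme that demethylates histones. Both genotypes came from matings of Rcor2fl/+NesCre mice, and the number of embryos behind each library is not given in the sources used here. Nestin-driven Cre acts in neural progenitors of the whole nervous system, ventral telencephalon included, so that the Cre line does not restrict deletion to the cortex.

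Cortical interneurons use GABA as their transmitter and are born outside the cortex, in the ganglionic eminences of the ventral telencephalon, from which they migrate tangentially into the cortical wall. Progenitors of the medial ganglionic eminence express Nkx2-1, which activates Lhx6 and Lhx8, and Lhx6 is kept in the migrating neurons that later make somatostatin or parvalbumin. Dlx transcription factors act in progenitors of all ganglionic eminences and in their daughter neurons, where they promote Gad1 and Gad2. At midgestation a cortical dissection holds some immigrant interneurons among glutamatergic cells.

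Expression was deposited as FPKM, fragments scaled to transcript length and to the mapped fragments of a library, with a 95% FPKM interval for each value. Values of genes can therefore be compared within a library. A gene was called higher or lower where it reached 1 FPKM in at least 1 library and the ratio of (FPKM + 0.1) passed 1.5-fold. Low FPKM values are spaced by the worth of 1 fragment, with a scaling total of 18841651 fragments for Rcor2fl/fl and 25479856 for Rcor2cko. Fragments were recovered from this spacing for genes with 1 transcript, together with a 95% exact (Clopper-Pearson) interval of the fold, which covers counting error only. With 1 library per genotype there is no replicate, no test of genotype and no p-value, and each difference is between these 2 libraries.

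The dissection carried cortical markers in both libraries. Neurod6, of glutamatergic cortical neurons, was at 399 FPKM in control and 386 FPKM in the Rcor2cko library, and Emx1, of dorsal progenitors, at 55.6 and 43.9 FPKM. Rcor2, counted over all its exons, was at 90.6 and 55.7 FPKM. The paper reports that RNA of the floxed exons was absent from Rcor2cko cortex at E13.5. It also reports loss of the protein in Rcor2cko brains by western blot. Xist was at 177 and 0.109 FPKM and the Y-linked gene Eif2s3y at 0 and 19.8 FPKM, so that the sex of the embryos and the genotype cannot be told apart in this pair.

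Of the 8 interneuron genes, 5 were higher in the Rcor2cko library, none was lower, 1 was tested and passed in neither direction, and 2 stayed under 1 FPKM in both libraries. Among all 11777 genes that reached 1 FPKM, 3.79% were higher by the same rule and 1.76% were lower. The 8 genes were chosen with earlier results of these data known, so that these shares give scale and are no test. The genes that were higher are those of GABA synthesis and vesicular loading and of both neuropeptides. Lhx6, the transcription factor gene that was tested, was not among them. The median log2 change over all 8 genes was 0.96, and 1.10 without Lhx8, which rests on 1 fragment. Over all tested genes the median was -0.03 with an SD across genes of 0.45. In bulk RNA, more cells of a type and more RNA per cell cannot be told apart.

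**Figure D1:**
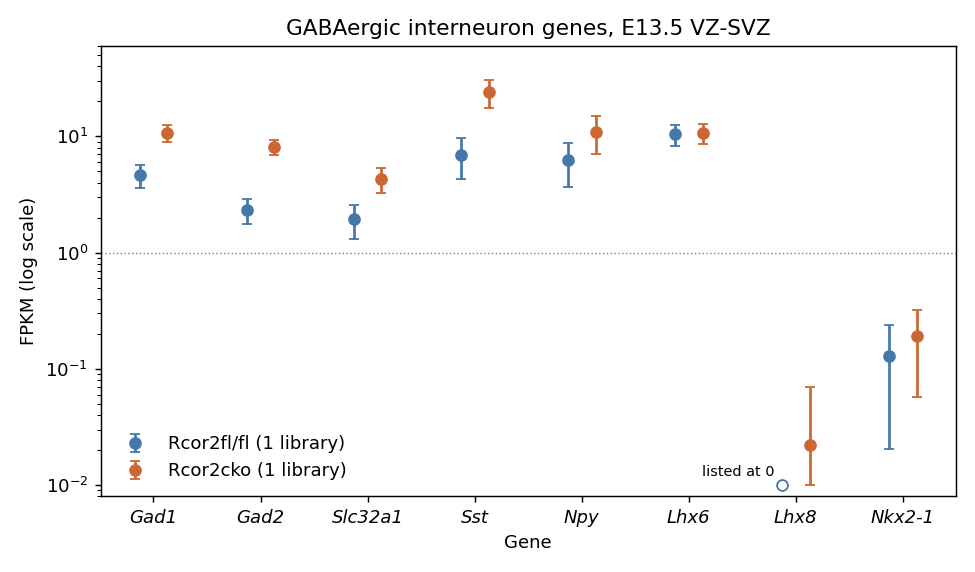
FPKM on a log scale (vertical axis) of the 8 interneuron genes (horizontal axis) in 1 control (Rcor2fl/fl) and 1 Rcor2cko library. Bars are 95% FPKM intervals, cut at the bottom of the axis where they reach 0. They are as deposited, except for Lhx6 and Nkx2-1 in control, where half-widths of transcript rows were added in quadrature. The open circle is a value listed at 0 and the dotted line is 1 FPKM. The intervals of Gad1, Gad2, Slc32a1 and Sst lie apart between the libraries, those of Npy and Lhx6 overlap, and Lhx8 and Nkx2-1 lie under the dotted line.

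The transmitter genes came first. Gad1 encodes GAD67, the glutamate decarboxylase that makes most of the GABA in the cell body. On mm9 it lies on chromosome 2 from 70400221 to 70440069 on the plus strand. Gad1 was at 4.65 FPKM (95% FPKM interval 3.59 to 5.71) in control and at 10.7 FPKM (8.89 to 12.5) in the Rcor2cko library. The level was 2.30-fold higher in the Rcor2cko library, from 266 and 825 fragments, with a 95% exact counting interval from 2.0 to 2.65.

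Gad2 encodes GAD65, the decarboxylase found at synaptic terminals, and lies on the same chromosome from 22477847 to 22549397 on the plus strand. Its level was 2.33 FPKM (1.77 to 2.88) in control and 8.10 FPKM (6.86 to 9.33) in the Rcor2cko library. This was a 3.48-fold difference, from 238 and 1119 fragments, with a 95% exact counting interval from 3.02 to 4.02. The counting intervals of the folds of Gad1 and Gad2 did not overlap, but they cover counting error only. The deposited FPKM intervals of these 2 genes were 1.83 to 2.56 times as wide as counting error alone. Whether the 2 folds differ was not tested. Within a library, Gad2 stood at 0.50 of the FPKM of Gad1 in Rcor2fl/fl and at 0.758 in Rcor2cko.

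Slc32a1 encodes VGAT, which loads GABA and glycine into synaptic vesicles, and lies on chromosome 2 from 158436494 to 158441483 on the plus strand. It was at 1.95 FPKM (1.31 to 2.59) and 4.31 FPKM (3.24 to 5.38), from 96 and 286 fragments. Its fold of 2.21, with a 95% exact counting interval from 1.75 to 2.81, lay within the interval of Gad1. The FPKM of Slc32a1 relative to Gad1 was 0.420 in control and 0.403 in the Rcor2cko library. The summed level of the 3 transmitter genes was 8.93 FPKM in control and 23.1 FPKM in the Rcor2cko library.

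Both neuropeptide genes were higher as well, with fewer fragments behind them because their transcripts are short. Sst encodes somatostatin, the peptide of a large class of interneurons from the medial ganglionic eminence, and lies on chromosome 16 from 23889667 to 23890930 on the minus strand. Sst was at 6.95 FPKM (4.29 to 9.60) in control and at 24.1 FPKM (17.7 to 30.4) in the Rcor2cko library, where it had the highest level of the 8 genes. The fold was 3.46, from 53 and 244 fragments of a 599 nt transcript, with a 95% exact counting interval from 2.56 to 4.75.

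Npy encodes neuropeptide Y, which is made by part of the somatostatin cells and by neurogliaform interneurons, and lies on chromosome 6 from 49772728 to 49779504 on the plus strand. Npy was at 6.20 FPKM (3.70 to 8.70) and 10.9 FPKM (7.04 to 14.9), from 41 and 96 fragments of a 545 nt transcript. It was 1.77-fold higher in the Rcor2cko library with a 95% exact counting interval from 1.21 to 2.61, the smallest fold of the 5 genes. The deposited FPKM intervals of Npy overlapped between the libraries, and those of the other 4 genes did not. With the further requirement that these intervals lie apart, 4 of the 8 genes remained higher, against 1.87% of all tested genes, and still none was lower, against 0.688%.

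The promoters of the 5 genes that were higher together are shown to compare their sequence. Each is the 250 bases before the RefSeq start site on GRCm38.p6, a later build than the mm9 of the expression files, written 5′ to 3′ on the strand of the gene. RefSeq entries were found for all 8 genes, with 10 start sites in all. Capitals mark matches on either strand to 5 motifs: TAATTA, the core bound by Dlx and Lhx homeodomains, CAAGTG, the core bound by Nkx2-1, TGACGTCA, the cAMP response element, TATAAA, the TATA box, and GGGCGG, the GC box. No matches in these promoters shared bases. The regions are chr2:70561879-70562128 (plus strand) for Gad1, chr2:22622077-22622326 (plus) for Gad2, chr2:158610508-158610757 (plus) for Slc32a1, chr16:23890845-23891094 (minus) for Sst and chr6:49822460-49822709 (plus) for Npy.
Gad1: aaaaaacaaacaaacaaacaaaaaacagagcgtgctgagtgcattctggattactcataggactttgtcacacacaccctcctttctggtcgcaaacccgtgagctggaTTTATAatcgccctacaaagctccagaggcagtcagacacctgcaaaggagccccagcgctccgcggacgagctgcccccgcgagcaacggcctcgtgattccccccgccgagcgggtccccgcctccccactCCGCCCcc
Gad2: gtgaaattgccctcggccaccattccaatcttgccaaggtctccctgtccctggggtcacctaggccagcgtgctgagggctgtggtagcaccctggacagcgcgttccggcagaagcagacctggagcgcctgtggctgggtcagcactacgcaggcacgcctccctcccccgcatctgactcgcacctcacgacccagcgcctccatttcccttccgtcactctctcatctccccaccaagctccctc
Slc32a1: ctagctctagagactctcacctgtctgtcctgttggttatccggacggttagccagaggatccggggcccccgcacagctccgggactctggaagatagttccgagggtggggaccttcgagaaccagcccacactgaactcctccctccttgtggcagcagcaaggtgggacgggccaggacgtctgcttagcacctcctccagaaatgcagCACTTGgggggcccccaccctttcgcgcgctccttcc
Sst: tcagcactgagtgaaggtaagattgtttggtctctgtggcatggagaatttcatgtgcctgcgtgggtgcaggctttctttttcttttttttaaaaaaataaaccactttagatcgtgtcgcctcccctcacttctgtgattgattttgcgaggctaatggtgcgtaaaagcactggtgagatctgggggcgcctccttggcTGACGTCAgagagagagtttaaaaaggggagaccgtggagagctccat
Npy: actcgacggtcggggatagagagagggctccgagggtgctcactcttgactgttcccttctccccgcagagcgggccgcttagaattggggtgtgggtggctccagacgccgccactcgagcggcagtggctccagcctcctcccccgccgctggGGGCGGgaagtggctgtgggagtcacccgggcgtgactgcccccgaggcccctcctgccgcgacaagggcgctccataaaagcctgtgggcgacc

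The 5 promoters shared none of these motifs as a group. The promoter of Sst held the full cAMP response element from 48 to 41 bases before the start, a motif found in 1.55% of 32851 RefSeq promoters of this length. GC boxes stood in the promoters of Gad1 and Npy, in 2 of the 3 promoters of Lhx6 and in that of Nkx2-1, and in 32.7% of all promoters. A TATA box on the opposite strand of Gad1, from 141 to 136 bases before the start, and an Nkx2-1 core on the opposite strand of Slc32a1, from 37 to 32 bases before it, were found in 12.4% and 11.6% of all promoters. The homeodomain core was in none of the 10 promoters and in 4.84% of all promoters. The promoter of Gad2 held no match. A match is a description of these letters, and a missing match says nothing of sites elsewhere.

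Of the 3 transcription factor genes, Lhx6 alone reached 1 FPKM. Lhx6, the LIM-homeodomain gene of migrating interneurons from the medial ganglionic eminence, lies on chromosome 2 from 35937473 to 35960928 on the minus strand. Lhx6 was at 10.4 FPKM (8.31 to 12.5) in control, the highest of the 8 genes there, and at 10.7 FPKM (8.57 to 12.7) in the Rcor2cko library. Its log2 change was 0.03 and the deposited intervals overlapped almost wholly. The control value is the sum of 4 transcripts, so that fragments were not recovered. When a gene was represented by its highest row, Lhx6 passed the 1.5-fold threshold with a log2 change of 1.06, because this setting takes 1 of 4 transcripts in control and the whole gene in the Rcor2cko library.

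Nkx2-1, the gene that specifies progenitors of the medial ganglionic eminence, lies on chromosome 12 from 57632924 to 57637895 on the minus strand and was at 0.128 FPKM (0.0202 to 0.236) and 0.190 FPKM (0.0576 to 0.323). The control value corresponds to 5 fragments. Lhx8, a LIM-homeodomain gene of cholinergic and other ventral neurons, lies on chromosome 3 from 153969258 to 153993524 on the minus strand. It was listed at 0 in control while 1 fragment, or 0.0221 FPKM, was found in Rcor2cko. Taking 3 fragments as the smallest level that the depth can show, the limits for Lhx8 are 0.0893 and 0.0663 FPKM, so that no difference was detectable for this gene. Both genes were far below Lhx6 in both libraries.

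The order of the levels differed between the libraries. In the Rcor2fl/fl library it was Lhx6, Sst, Npy, Gad1, Gad2, Slc32a1, Nkx2-1 and Lhx8. The deposited intervals of Lhx6 and Sst overlapped there, as did those of Sst and Npy, of Npy and Gad1, and of Gad2 and Slc32a1. In the Rcor2cko library it was Sst, Npy, Gad1, Lhx6, Gad2, Slc32a1, Nkx2-1 and Lhx8. There the interval of Sst lay above all others, and the intervals of Npy, Gad1, Lhx6 and Gad2 overlapped each other.

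Ratios to Lhx6 within a library do not depend on how the libraries are scaled. The FPKM of Gad1 relative to Lhx6 was 0.446 in control and 1.003 in the Rcor2cko library. Gad2 went from 0.223 to 0.760, Slc32a1 from 0.187 to 0.405, Sst from 0.667 to 2.26 and Npy from 0.595 to 1.03. All 5 ratios were higher in the Rcor2cko library. As Lhx6 itself differed only 1.02-fold, they restate the folds given above and are no further result. The FPKM of Gad2 relative to Dlx2 was 0.786 and 0.720, and that of Sst relative to Dlx2 was 2.35 and 2.14. The same ratio was 1.57 and 0.950 for Gad1, 0.660 and 0.383 for Slc32a1, and 2.10 and 0.973 for Npy. All 5 ratios to Dlx2 were lower in the Rcor2cko library. For Gad2 and Sst the counting interval of the fold overlapped that of Dlx2. For Gad1, Slc32a1 and Npy it did not overlap. These intervals cover counting error only, and their overlap is no test of a ratio. Whether the ratios to Dlx2 differ between the libraries was not tested.

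**Figure D2:**
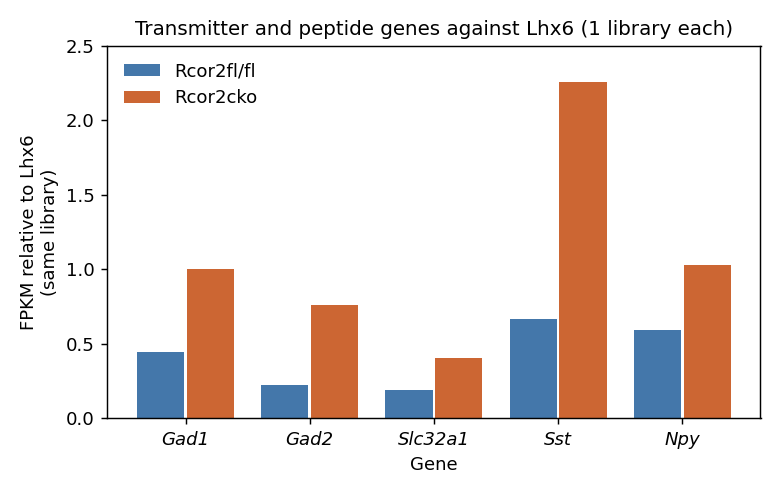
FPKM of 5 transmitter and peptide genes divided by the FPKM of Lhx6 in the same library (vertical axis, linear), 1 library per genotype and no error bars. Each gene stands higher in the Rcor2cko library, Sst at 2.26 against 0.667 and Slc32a1 at 0.405 against 0.187.

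Other genes of GABA handling were compared by a list of 8. Of the 7 that reached 1 FPKM, 1 was higher, none was lower and 6 passed in neither direction. Among all tested genes 3.79% were higher and 1.76% lower. The gene that was higher, Slc6a11, encodes GAT3, a plasma membrane GABA transporter found mostly in astrocytes. Its levels were 0.809 FPKM in control (59 fragments) and 1.85 FPKM in Rcor2cko (182 fragments). The fold was 2.29 with a 95% exact counting interval from 1.70 to 3.12. This gene reached 1 FPKM in the Rcor2cko library only. With 1 FPKM required in both libraries 0 genes were higher, against 2.31% of all tested genes. With a filter of 5 FPKM 0 were higher, against 1.59%. With the highest row per gene 4 were higher, against 10.3%. That setting takes 1 transcript in control and the whole gene in the Rcor2cko library, which raises the ratio of genes with several transcripts. The remaining genes, of GABA breakdown and of glutamine and glutamate supply, had log2 changes between -0.17 and 0.35 where they reached 1 FPKM. The median log2 change of all 8 was 0.25.

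The Dlx genes, upstream of Gad1 and Gad2, were higher in all 6 of 6 cases, with a median log2 change of 1.65. Among all tested genes 3.79% were higher. Dlx6, at 0.121 FPKM in control, passed the filter through the Rcor2cko library only. With 1 FPKM required in both libraries, 5 Dlx genes were higher, against 2.31% of all tested genes. Dlx1 was at 4.87 and 13.9 FPKM and Dlx2 at 2.96 and 11.2 FPKM. Dlx6os1, a non-coding RNA transcribed from the Dlx5 and Dlx6 locus, was at 4.19 and 14.7 FPKM. It and Dlx1as overlap Dlx coding genes, and whether the counting used strand is not given in the sources used here. The fold of Dlx2, 3.802 with a counting interval from 3.14 to 4.64, was close to those of Gad2 and Sst. The folds of Gad1 (2.30), Slc32a1 (2.21) and Npy (1.77) were smaller, with counting intervals wholly below that of Dlx2. The likeness of some of these folds and the difference of others are described here and were not tested.

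**Figure D3:**
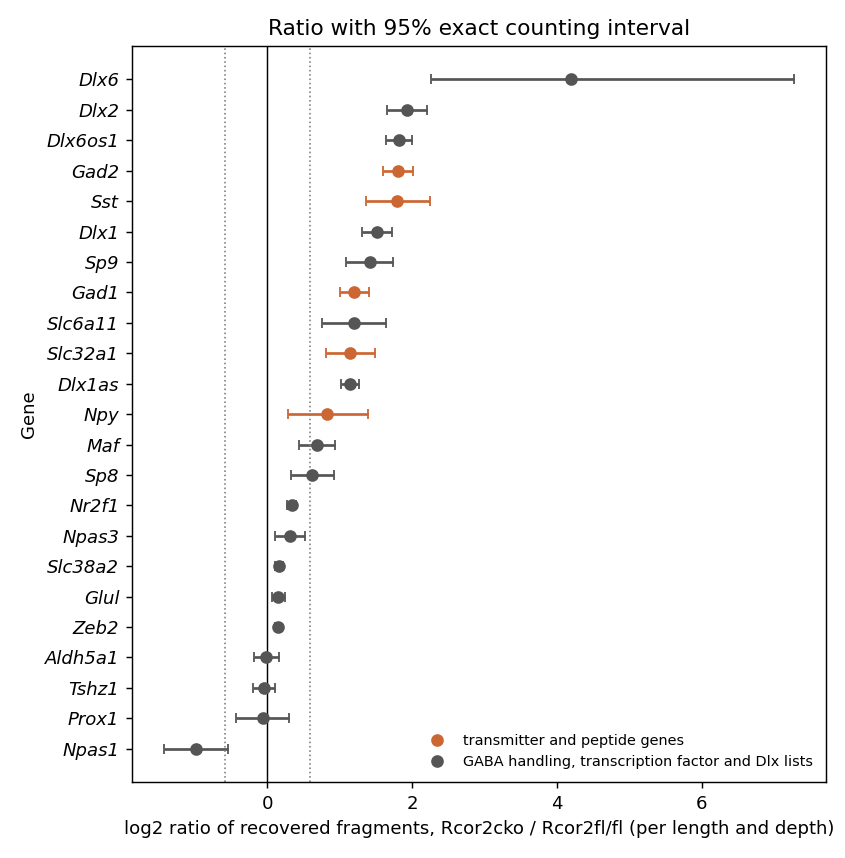
Log2 ratio of recovered fragments per transcript length and depth, Rcor2cko over Rcor2fl/fl (horizontal axis), for 23 genes (vertical axis) of the interneuron, GABA handling, transcription factor and Dlx lists with 1 transcript and at least 1 FPKM. Bars are 95% exact counting intervals without replicate error and dotted lines mark 1.5-fold. The 5 transmitter and peptide genes lie between Npy at 0.82 and Gad2 at 1.80, with Dlx2 above them at 1.93, Dlx6 at the top with a wide interval from 2 control fragments, and Npas1 lowest at -0.99.

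Transcription factors of interneurons other than Dlx, Lhx and Nkx2-1 moved in both directions. Of 14 listed, 13 reached 1 FPKM, of which 4 were higher, 1 was lower and 8 passed in neither direction, with a median log2 change of 0.32 over all 14. Among all tested genes 3.79% were higher and 1.76% lower. Sp9, a zinc finger gene of the ganglionic eminences, was at 2.07 and 5.50 FPKM, a fold of 2.66 with a counting interval from 2.13 to 3.35. Nr2f2, which marks the caudal ganglionic eminence, was at 3.33 and 6.18 FPKM, and Maf, of somatostatin and parvalbumin precursors, at 3.12 and 5.03 FPKM. Npas1, of a subset of interneurons, was lower, at 3.05 and 1.54 FPKM, a ratio of 0.504 (0.370 to 0.683), although its deposited intervals overlapped.

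Sox6 and Satb1, also of the Lhx6 lineage, are given as examples named after their values were seen. Sox6 was at 14.0 and 12.1 FPKM and Satb1 at 15.9 and 15.1 FPKM. Their log2 changes of -0.20 and -0.07 lay inside the 1.5-fold limits, unlike that of Maf at 0.67. Glutamatergic neurons and progenitors of the cortex also express Sox6 and Satb1 to differing degrees, so that bulk values of these genes are not those of interneurons alone.

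A list of genes of migration and synapse formation was compared in the same way. Of 10 listed, all reached 1 FPKM, 2 were higher and none was lower, against 3.79% and 1.76% of all tested genes, and the median log2 change was 0.05. With the highest row per gene, which raises the ratio of genes with several control transcripts, 4 were higher, against 10.3% of all tested genes. Cxcr7, a receptor for the chemokine Cxcl12 that guides interneurons, was at 5.72 and 9.32 FPKM, and Nxph1, a neurexin ligand of interneurons, at 3.91 and 6.38 FPKM. Erbb4, the neuregulin receptor of migrating interneurons, stood at 3.11 and 3.98 FPKM (log2 change 0.35). Cxcr4, named after its value was seen as the partner of Cxcr7, stood at 14.6 and 11.4 FPKM (log2 change -0.35).

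Genes of interneuron subtypes other than Sst and Npy differed in both directions. Of 16 listed, 10 reached 1 FPKM, of which 4 were higher and 3 were lower, and the median log2 change of all 16 was 0.00. Among all tested genes 3.79% were higher and 1.76% lower. The 4 that were higher, Calb1, Tac1, Penk and Htr3a, were under 1 FPKM in control. With 1 FPKM required in both libraries 0 were higher and 3 lower, against 2.31% and 1.13% of all tested genes. With the 5 FPKM filter 0 were higher and 1 lower, against 1.59% and 0.790%. Calb1, which encodes the calcium buffer calbindin of many tangentially migrating cells, was at 0.496 and 1.78 FPKM, a fold of 3.59 (2.32 to 5.76). Calb2, which encodes calretinin, was lower, at 4.25 and 1.37 FPKM, a ratio of 0.323 (0.220 to 0.466). Calretinin is also made by Cajal-Retzius cells, as is reelin. The reelin gene Reln, named after its value was seen, was lower too, at 36.5 and 15.6 FPKM. The remaining lower gene of the list, A930038C07Rik, was at 1.75 and 1.01 FPKM. The cause of these differences was not tested. Tac1, of substance P, was listed at 0 in control while 31 fragments, or 1.46 FPKM, were found in Rcor2cko, which is at least 7.70-fold higher when 3 fragments are taken as the control limit. Penk, of enkephalin, was at 0.392 and 1.10 FPKM. Tac1 and Penk are peptides of striatal projection neurons as well. Pvalb and Vip, markers of interneurons that mature after birth, were listed at 0 in both libraries.

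**Figure D4:**
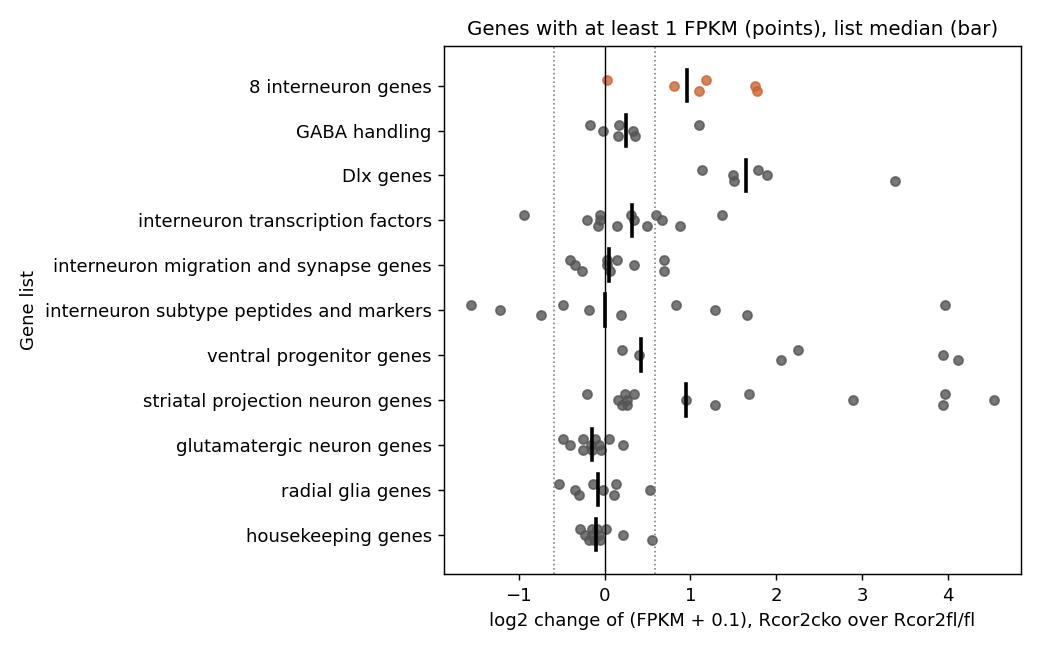
Log2 change of (FPKM + 0.1), Rcor2cko over Rcor2fl/fl (horizontal axis), for the genes of 11 lists (vertical axis). Points are genes that reached 1 FPKM in either library, vertical bars are medians over all genes of a list and dotted lines mark 1.5-fold. The medians are 0.96 for the 8 interneuron genes and 1.65 for the Dlx genes, against -0.14 for glutamatergic neuron genes and -0.10 for housekeeping genes.

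Some markers of other ventral cells were also higher in the Rcor2cko library. The counts of the 2 lists below stand beside 3.79% higher and 1.76% lower among all tested genes. Of 17 genes of striatal projection neurons, which are GABAergic and express Gad1, Gad2 and Slc32a1, 14 reached 1 FPKM, 7 were higher, 7 passed in neither direction and none was lower, and their summed level was 134 FPKM in control and 166 FPKM in the Rcor2cko library. All 7 that were higher were under 1 FPKM in control, and Isl1, Six3 and Tac1 were listed at 0 there. Isl1, a factor of striatonigral neurons, reached 2.23 FPKM from 132 fragments. Of 12 genes of ventral progenitors, 6 reached 1 FPKM, and the list had a summed level of 3.63 and 9.87 FPKM. The 4 that were higher, Gsx2, Six3, Olig1 and Olig2, passed the filter through the Rcor2cko library only and so were bound to be low in control, while Gli1 and Ptch1, of hedgehog signalling, passed in neither direction. Gsx2, which marks progenitors of the lateral ganglionic eminence, and Six3 were listed at 0 in control and reached 1.64 and 1.43 FPKM. The 2 lists share Six3, and their part in the levels of Gad1, Gad2, Slc32a1, Sst and Npy was not tested.

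Cells of other origins were covered by further lists. Over all tested genes, 3.79% were higher and 1.76% were lower by the same rule. Of 7 choroid plexus genes, 3 reached 1 FPKM and 2 were higher, and their summed level was 2.17 FPKM in control and 63.7 FPKM in the Rcor2cko library, of which Ttr made 57.8 FPKM. The 2 that were higher, Ttr and Kcne2, were at 0 and 0.142 FPKM in control. Both passed the filter through the Rcor2cko library only and so were bound to be low in control. Of 7 microglia genes, 4 were higher, with a summed level of 16.2 and 25.4 FPKM. Their part in the interneuron result was not tested. None of 7 endothelial, 8 radial glia, 11 glutamatergic neuron and 12 housekeeping genes passed in either direction. Of 9 genes of the hypothalamus and preoptic area, which also hold GABAergic and peptidergic neurons, 1 reached 1 FPKM and passed in neither direction, and Otp, Hcrt, Avp and Oxt were listed at 0 in both libraries.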

How the data were processed

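RNA was isolated with RNeasy columns, and libraries were made with a stranded mRNA kit, 1 per genotype. The authors mapped reads to mm9 with TopHat and estimated expression with the Cufflinks tools. The submitters' processing notes name TopHat 1.3.3 and Cufflinks 1.2.0, and the methods of the paper name a later TopHat release. The deposited unit is FPKM with a 95% FPKM interval, in 27641 transcript rows for Rcor2fl/fl and 21896 gene rows for Rcor2cko.

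Here transcript rows were summed per gene, their interval half-widths were added in quadrature, and no further normalization was applied. Fragments were recovered where a gene had 1 transcript of at least 500 nt, by fitting the FPKM of 1 fragment against transcript length (length offsets of 194 and 200.9 nt). Of 4448 and 4397 values up to 100 fragments, 99.3% and 99.5% lay less than 0.1 from a whole number. The steps recovered known fragments when tested on simulated data. Positions are those of the files, counted from 1, and all 8 genes overlap the entry of the same symbol in GENCODE vM1. Python 3.11.15, numpy 2.4.6, pandas 2.3.3, scipy 1.17.1 and matplotlib 3.10.9 were used.

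Some genes were left out of the lists and are not reported here. The 8 genes and the lists were chosen with earlier results of these data known. Named were all 8 genes, Rcor2, and of the lists the first gene and up to 4 with the largest change past 1.5-fold, with exceptions stated where they occur and not every such gene printed. Annotated genes overlap Gad1 and Slc32a1 on the opposite strand and Gad2 on the same strand, and have no values here.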

Additional observations from a re-analysis of the deposited data

How the results depend on the processing

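With 12 alternatives of pseudocount, scaling, filter, threshold, row choice and interval overlap, the number of the 8 interneuron genes that were higher ranged from 4 to 6 and the number lower stayed at 0. It was 4 with a filter of 5 FPKM reached in either library, which leaves out Slc32a1, and with a fold above 2 or deposited intervals apart, each of which leaves out Npy. It was 6 with the highest row per gene, which adds Lhx6. The median log2 change ranged from 0.79 with a pseudocount of 1 to 1.17 with a pseudocount of 0.01. The log2 changes of Gad1, Gad2, Slc32a1, Sst and Npy kept their sign and stayed past 1.5-fold under each pseudocount, scaling and row choice. For the GABA handling, Dlx and 3 other interneuron lists together, 17 genes were higher and 4 lower. The shares of all tested genes were 3.79% and 1.76%, and the number tested of each list is given above. With the 5 FPKM filter 10 were higher and 1 lower, as fewer genes were tested, against 1.59% and 0.790%. The number higher was 11 with 1 FPKM required in both libraries, against 2.31%, and 11 with a fold above 2, against 1.38%. It was 23 with the highest row per gene, against 10.3%. The number lower was 2 with a fold above 2, against 0.526%, and 2 with intervals apart, against 0.688%. The share of all tested genes that were higher, 3.79%, ranged from 1.38% above 2-fold to 10.3% with the highest row per gene.

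Depth limits Lhx8 and Nkx2-1 most. The exact intervals cover counting error only and carry no error between embryos or dissections. No paired analysis was possible because each genotype has a single library.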

Other observations

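In control, where transcripts are given apart, Lhx6 had 6.51 FPKM from the start site shared by NM_001083125 and NM_008500 and 3.91 FPKM from the start site shared by NM_001083126 and NM_001083127. The signal of Nkx2-1 there came from NM_001146198, at 0.128 FPKM, while NM_009385 was listed at 0. The Rcor2cko values are not split by transcript.

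The deposited 95% FPKM intervals are wider than counting error alone. For Gad2 their half-width was 23.7% of the value in control and 15.3% in the Rcor2cko library, whereas 2 SD of a Poisson count of the recovered 238 and 1119 fragments would be 12.96% and 5.98%. For Npy the half-widths were 40.3% and 35.7% against 31.2% and 20.4%. The ratio of the widths ranged from 1.29 for Npy to 2.56 for Gad2 over the 5 transmitter and peptide genes and both libraries.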
